A study of Mus musculus with 6 samples.

Results

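The genes that encode cohesin, its loader and its regulators, together with Ctcf, were examined in mouse LSK cells labelled Tet1 KO and in wild-type LSK cells. The members are Smc1a, Smc3, Rad21, Stag1, Stag2, Nipbl, Pds5a, Pds5b and Ctcf. They were represented by the 29 probe sets, of 45101 on the array, whose platform annotation names 1 of these 9 genes and no other. LSK cells are lineage-negative marrow cells that carry Sca-1 and Kit, and they contain the haematopoietic stem cells and early multipotent progenitors. There were 3 Tet1 KO samples and 3 WT samples, each from bone marrow of 6-month-old mice of the strain labelled CD57BL/6, sorted by flow cytometry and put on 1 Affymetrix array. Neither the design of the Tet1 KO allele nor whether each sample came from its own mouse is stated in the sources used, so a p-value speaks for the variation among these 6 samples. Values are log2 probe set intensities as deposited, and differences are Tet1 KO minus WT. In sorted cells of mixed stages, fewer cells of a type and less RNA per cell cannot be told apart.

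Cohesin is a ring of Smc1a, Smc3 and Rad21 that binds a Stag subunit, either Stag1 or Stag2. It is loaded on chromatin by Nipbl, which works with Mau2, and it extrudes DNA loops that are held where CTCF is bound to its motif. Pds5a and Pds5b bind the ring and act with Wapl in its release and with the Esco acetyltransferases in its stabilisation. The ring also holds sister chromatids together until mitosis. In blood, cohesin genes, STAG2 above all, are mutated in human myeloid leukaemias, and reduced cohesin in mouse stem and progenitor cells favours self-renewal over differentiation. Tet1, which oxidises 5-methylcytosine, is recruited to CpG-rich DNA, and binding of CTCF at some of its sites is hindered by methylation.

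The members lie on 6 chromosomes in the RefSeq annotation of GRCm38.p6. Smc1a (X, 152016428 to 152061973) and Stag2 (X, 42149297 to 42277186) are X-linked. Nipbl and Rad21 lie on chromosome 15, at 8289824 to 8465315 and 51962604 to 51993538. Pds5a and Pds5b lie on chromosome 5, at 65605719 to 65698236 and 150673713 to 150810669. Stag1 lies on chromosome 9 (100597709 to 100958544), Smc3 on chromosome 19 (53600396 to 53645831) and Ctcf on chromosome 8 (105636474 to 105682922). Promoter sequences in RefSeq tables of the same build matched 6 of the 9 genes. In the 250 bases before the transcript start of that table, which for Stag1, Pds5b and Ctcf lies inside the gene span given above, CpG, searched as the letters CG, which read alike on both strands, occurred 44 times at Pds5a, 40 times at Ctcf, 36 at Pds5b, 31 at Stag1, 26 at Smc3 and 16 at Smc1a. The median over 32851 promoters was 6, and 92.1% of them held at least 1. At Pds5a 99.5% of promoters held fewer, and at Smc1a 74.6% did. The most and the least CpG-rich of the 6 are shown to make that span visible, with each CG in capitals, for Pds5a at chr5:65698237-65698486 on the minus strand and for Smc1a at chrX:152016178-152016427 on the plus strand, both 5′ to 3′.
Pds5a: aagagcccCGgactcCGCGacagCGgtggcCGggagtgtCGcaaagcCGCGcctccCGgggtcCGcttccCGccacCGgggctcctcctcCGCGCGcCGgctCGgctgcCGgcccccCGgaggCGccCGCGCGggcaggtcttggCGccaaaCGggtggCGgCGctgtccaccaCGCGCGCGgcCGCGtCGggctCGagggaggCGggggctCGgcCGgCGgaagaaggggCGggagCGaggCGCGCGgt
Smc1a: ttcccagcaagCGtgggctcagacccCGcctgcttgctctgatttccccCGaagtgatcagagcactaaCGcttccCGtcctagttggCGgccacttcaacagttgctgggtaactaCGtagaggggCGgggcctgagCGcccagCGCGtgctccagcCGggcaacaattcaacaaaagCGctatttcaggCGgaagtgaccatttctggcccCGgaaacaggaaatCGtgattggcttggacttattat
These counts describe sequence and were not tied to any value of the arrays, which carry no methylation data.

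Tet1 was lower in the libraries labelled Tet1 KO at each of its 4 probe sets, and its brightest read 6.26, 5.63 and 5.51 in Tet1 KO, against 6.89, 6.80 and 6.75 in WT, with an adjusted limma p of 0.686. LSK identity genes were present in both groups: Kit read 9.68 to 9.95 in Tet1 KO and 9.83 to 10.02 in WT, and 6 of 6 measured identity genes lay above 4.39, a bacterial control level used here as a guide to background. Ly6a, which encodes Sca-1, had no probe set under its name alone. The Tet1 KO means at the 4 Tet1 probe sets, 5.80, 5.59, 5.23 and 4.75, also lay above the bacterial control level. Some listed marker genes of blood lineages were also read above that level. For the B lineage these were 3 of 4 measured, led by Cd79b with a mean of 7.31 in Tet1 KO and 7.73 in WT. For T and NK cells they were 2 of 4, led by Nkg7 with 8.81 in Tet1 KO and 8.98 in WT. For the erythroid lineage they were 3 of 4, led by Klf1 with 6.88 in Tet1 KO and 7.02 in WT. For the granulocyte and monocyte lineage they were 6 of 6, led by Mpo with 11.72 in Tet1 KO and 11.45 in WT. Ms4a1 of B cells, Cd3e and Cd3g of T cells and the globin gene Hba-a1 were under the bacterial control level. Markers of a lineage did not share 1 direction. Higher in Tet1 KO were 2 B-lineage, 3 T and NK, 2 erythroid and 4 granulocyte and monocyte genes. Lower were 2, 1, 2 and 2. Pax5 was higher by 0.42 (unadjusted limma p 0.0331) and Cd8a by 0.53 (unadjusted limma p 0.0375), each with an adjusted p of 0.686. Over all 18193 genes 3.02% were higher at an unadjusted p under 0.05. Whether early or mature cells gave these readings, and their part in the results, was not tested. Replicate 3 of each group read low for Xist and high for Y-linked Kdm5d, so the groups were balanced for this state. Tet1 KO replicate 2 stood apart, with an array weight of 0.26 against 0.87 to 1.88 for the others, and a bacterial control reading of 4.87, where no other array exceeded 4.37. Its 3′ minus 5′ difference of Gapdh was 1.22. On Tet1 KO replicates 1 and 3 this was 1.76 and 1.90, above the 1.36 to 1.57 of WT. For actin the difference was -0.33 on Tet1 KO replicate 2, 0.09 and -0.10 on replicates 1 and 3, and -0.15 to -0.04 in WT. Values without Tet1 KO replicate 2 thus rest on 2 Tet1 KO arrays with a larger Gapdh difference than WT, and its effect was not tested. Where leaving out Tet1 KO replicate 2 moved the difference at a member probe set by over 0.1, both values are given.

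**Figure D1:**
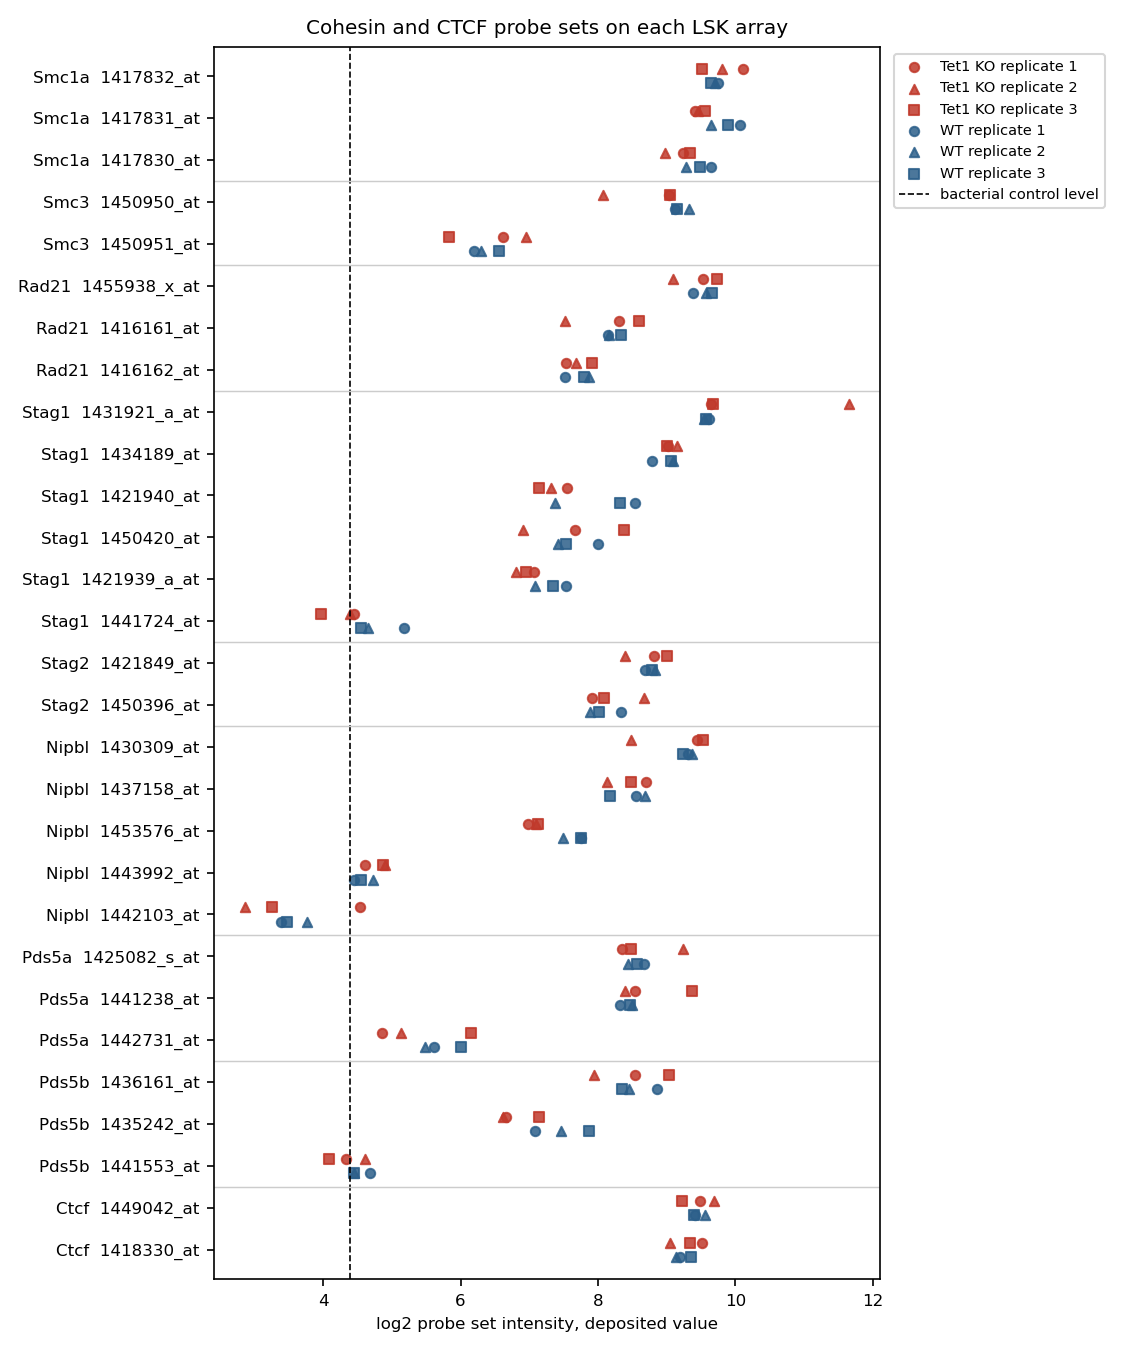
Deposited log2 intensity (horizontal axis) of the 29 probe sets of cohesin genes and Ctcf on each of 3 Tet1 KO arrays (red, upper of each row) and 3 WT arrays (blue, lower), with the marker giving the replicate and the dashed line the bacterial control level of 4.39. Tet1 KO replicate 2 (red triangle) lies far from the other arrays at Stag1 1431921_a_at, at 11.66, and at Smc3 1450950_at, at 8.07.

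None of the 29 probe sets differed between Tet1 KO and WT after correction. Nipbl had the member probe set with the smallest p, with every Tet1 KO array below every WT array, and both Ctcf probe sets differed by under 0.07 with all arrays in. The differences ran from -0.75 to 0.75, both at Stag1. In limma, fitted over 45037 probe sets, 0 members had a Benjamini-Hochberg adjusted p under 0.05, as did 0.0% of all probe sets, and the smallest adjusted p of a member was 0.686. Unadjusted limma p-values under 0.05 were found at 2 members, a probe set of Nipbl and another of Pds5b, both lower, where 6.81% of all probe sets had such a p, 3.23% higher and 3.58% lower. The groups did not overlap at 6 members, with 1 higher in Tet1 KO and 5 lower, where 16.2% of all probe sets did not, 9.96% higher and 6.29% lower. Brighter probe sets leaned to lower values. Among the 28780 above the bacterial control level, 1731 were higher without overlap and 2527 lower. In the level range of the 9 brightest member probe sets, 84 of 3054 were higher without overlap and 403 lower. The 5 lower members belonged to Smc1a, Smc3, Nipbl and, for 2 of them, Stag1. Probe sets of 1 gene are not independent, and for Smc3, Stag2 and Ctcf both probe sets are listed under the same sequence record.

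The members as a list stayed close to other probe sets. They had 18 lower and 11 higher values and a median difference of -0.04, against a median of 0.06 over all probe sets. Of the 29, 28 read on average above the bacterial control level, and over all 28780 probe sets above that level the median was -0.04, with 54.7% lower. The 9 brightest member probe sets had 5 lower and 4 higher values and a median of -0.03. Over the 3054 probe sets of the same range of level, 8.53 to 9.95, the median was -0.13. Cyclic loess normalization brought that median to 0.00 and gave 12 members lower and 17 higher, so the majority direction of the members depends on the scaling. The split was nearly even when Tet1 KO replicate 2 was left out: 15 members were lower and 14 were higher, and their median was -0.00262. The median of the 3054 probe sets, which match the 9 brightest members in level and not all 29, was then -0.06.

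Much of the members' spread came from the Tet1 KO arrays. The median range across the arrays of a group was 0.60 in Tet1 KO and 0.31 in WT, and the Tet1 KO range was the wider at 21 of 29 members, or 72.4%, against 72.0% of all probe sets. Relative to the WT mean, the median over members was -0.01 on Tet1 KO replicate 1, -0.41 on replicate 2 and 0.01 on replicate 3. Over the 28780 probe sets above the bacterial control level it was -0.04, -0.08 and -0.01 on the same arrays. The 9 brightest member probe sets had 0.02, -0.37 and 0.09, against -0.08, -0.24 and -0.07 over the 3054 probe sets of their level range.

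**Figure D2:**
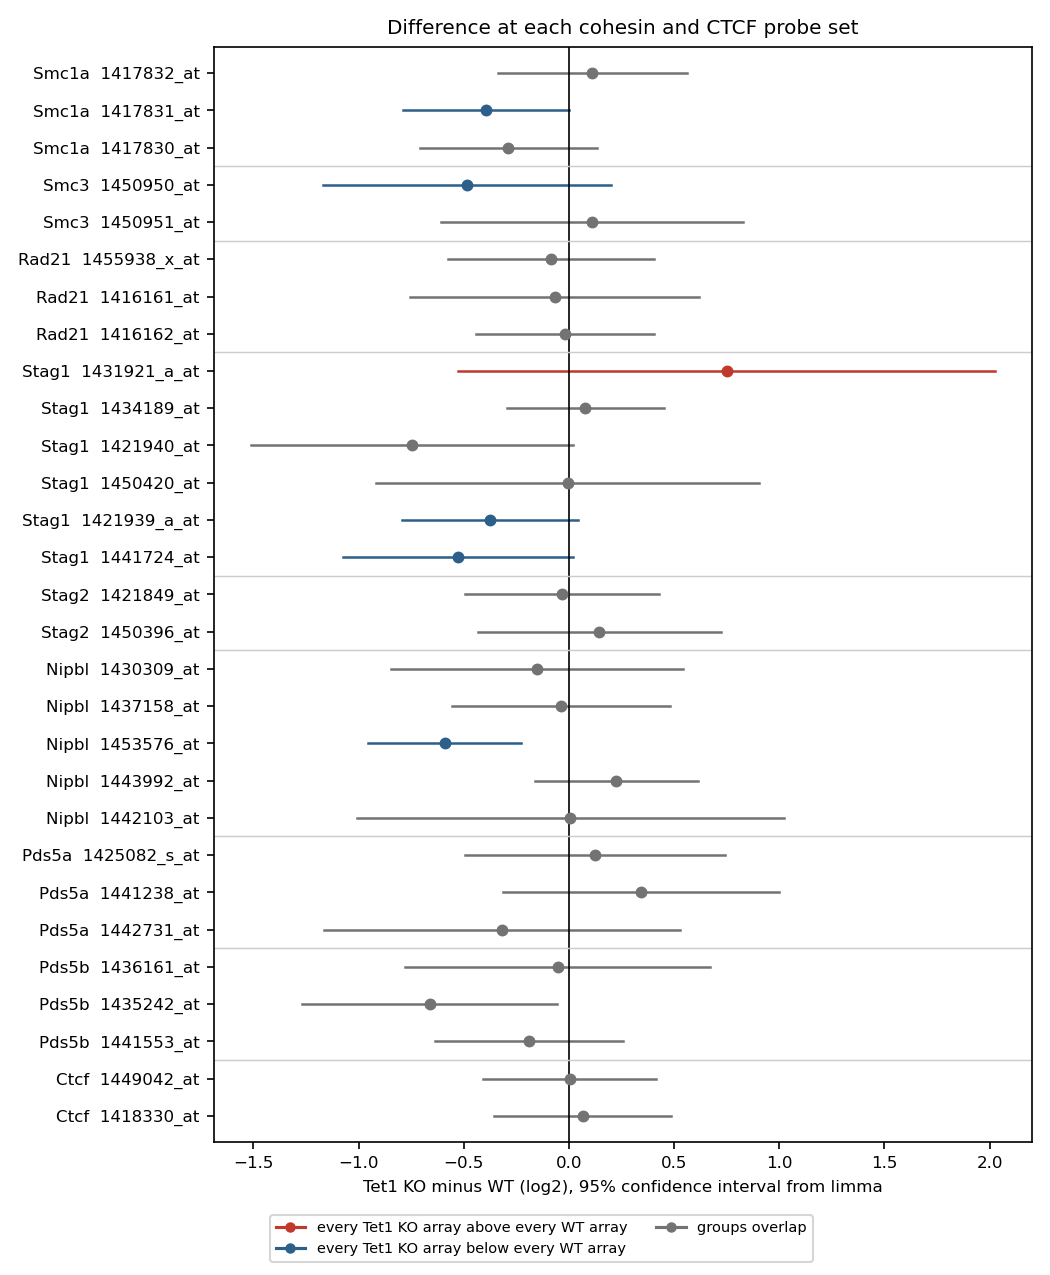
Tet1 KO minus WT difference (log2, horizontal axis) at each of the 29 probe sets, with the 95% confidence interval from limma on 3 arrays per group, coloured by whether the groups overlap. The intervals of Nipbl 1453576_at and Pds5b 1435242_at do not reach 0, and none of the 29 had an adjusted p under 0.05.

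Smc1a and Smc3 are the long coiled-coil ATPases of the ring. At Smc1a 1417831_at the arrays read 9.41, 9.45 and 9.55 in Tet1 KO, against 10.06, 9.64 and 9.89 in WT. Every Tet1 KO array was below every WT array, with a narrow gap. The difference was -0.39 with a standard error of 0.17 and an unadjusted limma p of 0.0503, and it lay between -0.51 and -0.27 over the alternative settings and left-out arrays. The brightest Smc1a probe set, 1417832_at, read 10.11, 9.80 and 9.51 in Tet1 KO, against 9.74, 9.71 and 9.65 in WT. Its Tet1 KO arrays lay on both sides of the WT arrays, and the difference was 0.11 (95% interval -0.34 to 0.56). The remaining one, 1417830_at, gave -0.29 with groups that overlapped, and -0.18 without Tet1 KO replicate 2. As Smc1a is X-linked, the difference at 1417831_at was also taken by Xist state: it was -0.42 between the Xist-high arrays, 2 per group, and -0.34 between the Xist-low arrays, 1 per group. The same split gave 0.23 and -0.13 at the brightest, 1417832_at, where the sign turned, and -0.36 and -0.15 at 1417830_at.

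Smc3 had probe sets that went opposite ways. At 1450950_at the arrays read 9.04, 8.07 and 9.04 in Tet1 KO, against 9.12, 9.33 and 9.16 in WT. All Tet1 KO arrays were lower, but only replicate 2 stood clear of WT. The difference of -0.48 (SE 0.29, unadjusted limma p 0.138) was -0.16 without that array. The dimmer 1450951_at read 6.61, 6.95 and 5.83 in Tet1 KO, against 6.19, 6.30 and 6.56 in WT, a difference of 0.11 in which Tet1 KO arrays lay above and below the WT range. Leaving out Tet1 KO replicate 2 turned it to -0.13, and leaving out replicate 3 raised it to 0.43.

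Rad21, the kleisin that closes the ring and is cut by separase at anaphase, had the closest agreement among its probe sets of the members with 3 or more. Its 3 differences were -0.09, -0.07 and -0.02. The brightest, 1455938_x_at, whose suffix marks probes that may also bind other transcripts, read 9.53, 9.10 and 9.73 in Tet1 KO, against 9.38, 9.57 and 9.66 in WT. The WT arrays lay between the Tet1 KO ones, and the 95% interval of the difference ran from -0.58 to 0.41. Tet1 KO replicate 2 was the lowest array at this probe set and at 1416161_at, where it read 7.52 beside 8.31 and 8.60 on the other Tet1 KO arrays and 8.14 to 8.34 in WT. Without it these differences were 0.09 and 0.25.

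Stag1 showed the widest disagreement of any member, with differences from -0.75 to 0.75 over 6 probe sets, of which 3 are listed under the same sequence record. The brightest, 1431921_a_at, read 9.65, 11.66 and 9.67 in Tet1 KO, against 9.62, 9.54 and 9.58 in WT. Every Tet1 KO array was above WT, but 2 of them by under 0.06 and replicate 2 by about 2 on the log2 scale. The difference of 0.75 (SE 0.53, unadjusted limma p 0.205) was 0.08 without replicate 2. No other Stag1 probe set had this array far above the rest: it read 9.16 at 1434189_at, where the other 5 arrays read 8.79 to 9.09, and was the lowest of all at 1450420_at, with 6.91.

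Of the 4 dimmer Stag1 probe sets, 3 gave differences of -0.75, -0.53 and -0.38, and the other was level. At 1421939_a_at the arrays read 7.06, 6.81 and 6.95 in Tet1 KO, against 7.53, 7.08 and 7.34 in WT. The groups did not overlap, but Tet1 KO replicate 1 and WT replicate 2 nearly touched. The difference was -0.38 (SE 0.17, unadjusted limma p 0.0703). At 1421940_at, of the same record, they read 7.55, 7.32 and 7.14 in Tet1 KO, against 8.54, 7.38 and 8.33 in WT, so that WT replicate 2 sat within the Tet1 KO range, and the difference was -0.75 (SE 0.32). The third of that record, 1450420_at, differed by 0.00 (0.37 without Tet1 KO replicate 2 and -0.37 without replicate 3), at 7.66, 6.91 and 8.38 in Tet1 KO and 8.0, 7.42 and 7.54 in WT. At 1441724_at the arrays read 4.44, 4.39 and 3.97 in Tet1 KO, against 5.17, 4.66 and 4.55 in WT. The groups did not overlap, the difference was -0.53 (SE 0.23, unadjusted limma p 0.0571), and the Tet1 KO mean of 4.27 was under the bacterial control level. Without WT replicate 1 that difference was -0.34.

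Stag2, the X-linked alternative to Stag1, had overlapping groups at both probe sets. The brightest, 1421849_at, read 8.81, 8.40 and 9.0 in Tet1 KO, against 8.69, 8.82 and 8.79 in WT, a difference of -0.03 (95% interval -0.49 to 0.43). The other, 1450396_at, read 7.92, 8.67 and 8.08 in Tet1 KO, against 8.33, 7.89 and 8.01 in WT, a difference of 0.15. Tet1 KO replicate 2 was the lowest array at the first and the highest at the second. Without it the differences turned to 0.14 and -0.08. By Xist state the difference at 1421849_at was -0.15 between Xist-high arrays and 0.21 between Xist-low arrays. At 1450396_at these values were 0.18 and 0.07.

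The balance of the paralogues was taken within each array as the log2 difference of their brightest probe sets, which tracks change between groups but not relative abundance. Stag2 minus Stag1 was -0.84, -3.27 and -0.67 in Tet1 KO, against -0.93, -0.72 and -0.79 in WT. Of the Tet1 KO arrays 2 were close to WT and replicate 2 was far below. The group difference was -0.78, with an exact two-sided permutation p of 0.7, and it was 0.05 without replicate 2. Pds5b minus Pds5a was 0.19, -1.31 and 0.55 in Tet1 KO, against 0.19, 0.01 and -0.22 in WT, a difference of -0.18 with an exact two-sided permutation p of 0.9. It was 0.38 without replicate 2. With 3 arrays against 3 the smallest p the permutation test allows is 0.1, and adjusted over both pairs each p was 0.9.

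**Figure D3:**
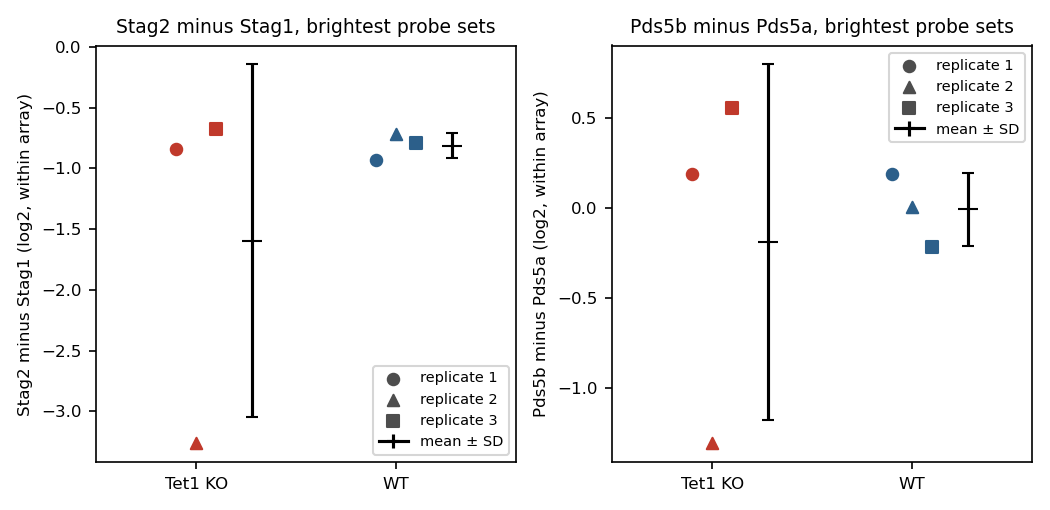
Within-array log2 difference of the brightest probe sets of Stag2 minus Stag1 (left) and Pds5b minus Pds5a (right) on 3 Tet1 KO arrays (red) and 3 WT arrays (blue), with the mean and SD of each group in black. Tet1 KO replicate 2, at -3.27 and -1.31, sets the width of both Tet1 KO bars.

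Nipbl, the loader, carried the member probe set with the smallest p. At 1453576_at the arrays read 6.99, 7.10 and 7.13 in Tet1 KO, against 7.76, 7.49 and 7.75 in WT. Every Tet1 KO array was lower than every WT array, and the spread within either group was smaller than the gap. The means were 7.07 ± 0.08 in Tet1 KO and 7.66 ± 0.16 in WT (SD, n = 3 each), and the difference of -0.59 (SE 0.15) corresponded to a 1.51-fold lower level in Tet1 KO. Its unadjusted limma p was 0.00668 and its adjusted p over all probe sets was 0.686. The difference was -0.58 between Xist-high arrays and -0.62 between Xist-low arrays, and over 14 alternative settings and left-out arrays it ran from -0.68 to -0.48, with an unadjusted p of at most 0.0304.

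The brighter Nipbl probe sets did not share this difference. The brightest, 1430309_at, read 9.44, 8.49 and 9.53 in Tet1 KO, against 9.31, 9.36 and 9.24 in WT. Here 2 Tet1 KO arrays were above WT and replicate 2 below, so that the difference of -0.15 (95% interval -0.85 to 0.54) was 0.18 without that array. The second, 1437158_at, read 8.69, 8.13 and 8.48 in Tet1 KO, against 8.55, 8.68 and 8.18 in WT, a difference of -0.04 with overlapping groups that became 0.12 when Tet1 KO replicate 2 was left out, and -0.18 when WT replicate 3 was. The dim 1443992_at differed by 0.22, and 1442103_at, the 1 member under the bacterial control level, by 0.01 (0.35 without Tet1 KO replicate 2 and -0.49 without replicate 1). Which Nipbl transcripts each probe set reads was not examined here.

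Pds5a and Pds5b are HEAT-repeat proteins that bind Rad21. For Pds5a the brightest probe set, 1425082_s_at, read 8.35, 9.24 and 8.48 in Tet1 KO, against 8.68, 8.44 and 8.57 in WT, a difference of 0.13 (95% interval -0.49 to 0.74). Replicate 2 alone was above the WT range, and without it the value was -0.15. At 1441238_at it was replicate 3 that stood out, at 9.37 beside 8.53 and 8.39 on the other Tet1 KO arrays and 8.32 to 8.49 in WT, and the difference of 0.34 was 0.04 without it and 0.53 without replicate 2. The third, 1442731_at, read 4.85, 5.14 and 6.15 in Tet1 KO, against 5.61, 5.49 and 6.00 in WT, a difference of -0.32. Leaving out 1 array took that value from -0.70, without Tet1 KO replicate 3, to -0.05, without Tet1 KO replicate 1, and it was -0.20 when Tet1 KO replicate 2 was left out and -0.17 when WT replicate 3 was.

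Pds5b was lower at all 3 of its probe sets. At 1435242_at the arrays read 6.66, 6.62 and 7.14 in Tet1 KO, against 7.09, 7.46 and 7.86 in WT. Tet1 KO replicate 3 lay just above WT replicate 1, and otherwise the Tet1 KO arrays were the lower. The means were 6.81 ± 0.29 in Tet1 KO and 7.47 ± 0.39 in WT (SD, n = 3 each), a difference of -0.66 (SE 0.25) with an unadjusted limma p of 0.0363 and an adjusted p of 0.686. The unadjusted p stayed under 0.05 in 7 of 14 alternative settings and left-out arrays. The brightest, 1436161_at, read 8.53, 7.94 and 9.03 in Tet1 KO, against 8.86, 8.45 and 8.35 in WT, a difference of -0.05 (95% interval -0.78 to 0.67) that was 0.23 without Tet1 KO replicate 2. The dim 1441553_at gave -0.19, with -0.06 without Tet1 KO replicate 3 and -0.32 without replicate 2.

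Ctcf, the zinc finger protein that marks loop anchors, was nearly level between the groups. At 1449042_at the arrays read 9.48, 9.69 and 9.22 in Tet1 KO, against 9.42, 9.56 and 9.39 in WT. At 1418330_at they read 9.51, 9.04 and 9.34 in Tet1 KO, against 9.20, 9.14 and 9.36 in WT. At both, all WT arrays lay within the Tet1 KO range. The differences were 0.00 (95% interval -0.41 to 0.42) and 0.07 (95% interval -0.36 to 0.49). Without Tet1 KO replicate 2 they were -0.11 and 0.19. A change of a size within those intervals remains possible, and the size that 3 arrays per group would resolve at the Ctcf probe sets was not tested.

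Genes that act with cohesin were read at the brightest probe set of each, and 0 of them passed the adjusted test. Of 15 regulators and partners, 9 were higher and 6 lower, with a median of 0.04, and an unadjusted limma p under 0.05 was met by 1 higher and 2 lower genes. Over all 18193 genes the median was 0.05, and 3.02% were higher and 3.70% lower at that p. Mau2, the partner of Nipbl, read 6.75, 7.72 and 7.29 in Tet1 KO, against 8.15, 9.49 and 8.02 in WT. Its groups did not overlap, the difference was -1.30 (SE 0.44, unadjusted limma p 0.0238), and its 4 probe sets gave differences from -1.30 to -0.12. WT replicate 2 was the highest array, and without it the difference was -0.83. Wapl, which opens the ring with the Pds5 proteins, read 8.27, 7.91 and 7.85 in Tet1 KO, against 8.96, 8.38 and 8.63 in WT. The groups did not overlap, and the difference was -0.65 (SE 0.21, unadjusted limma p 0.0189), while its 5 probe sets ranged from -0.65 to 0.78. Ddx11, a helicase needed for cohesion at replication forks, read 6.97, 8.35 and 7.74 in Tet1 KO, against 6.36, 6.98 and 6.81 in WT. Its lowest Tet1 KO array lay within the WT range, and the difference was 0.98 (SE 0.37, unadjusted limma p 0.0335), which was 0.65 without Tet1 KO replicate 2. The 2 probe sets of Ddx11 gave 0.29 and 0.98. The adjusted limma p at the brightest probe set of Mau2, Wapl and Ddx11 was 0.686 each. At Pttg1, the separase inhibitor securin, Tet1 KO replicate 2 read 12.75 and the other arrays 9.68 to 10.15, so that the difference of 0.89 was -0.07 without it. The 3 probe sets of Pttg1 ranged from -0.22 to 0.89.

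Condensin and the SMC5/6 complex are relatives of cohesin that compact mitotic chromosomes and act in DNA repair. Of 14 measured genes 5 were higher and 9 lower, with a median of -0.09. At an unadjusted limma p under 0.05, Nsmce1 and Nsmce2, SMC5/6 subunits, were lower by -1.02 (SE 0.40) and -0.43 (SE 0.17), and Nsmce3, of the same complex, was higher by 0.76 (SE 0.29). Without Tet1 KO replicate 2 Nsmce1 was at -0.67, Nsmce2 at -0.50 and Nsmce3 at 0.46. The probe sets of Nsmce1 ranged from -1.02 to 0.78. None of the condensin genes and neither Smc5 nor Smc6 reached that p at its brightest probe set. Of meiotic cohesin genes, Rec8 alone of 3 measured lay above the bacterial control level, and Smc1b and Stag3 were under it. The 5 measured loop partners, Yy1, Ldb1, Med1, Med12 and Med14, gave 4 higher and 1 lower, from -0.46 at Med1 to 0.23 at Med12. Yy1, counted as higher, was level at 0.00. The probe sets of a gene ranged from -0.46 to 0.71 at Med1, from -0.58 to 0.06 at Med14 and from -0.47 to 0.05 at Yy1. At Med1 replicate 2 read 7.85 beside 8.99 and 9.24 on the other Tet1 KO arrays and 9.10 to 9.25 in WT, and without it the differences were -0.04 at Med1 and 0.09 at Med12. Ldb1, at 0.03 with all arrays, was at -0.17 when that array was left out, and Med14, at 0.06, was at 0.25.

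**Figure D4:**
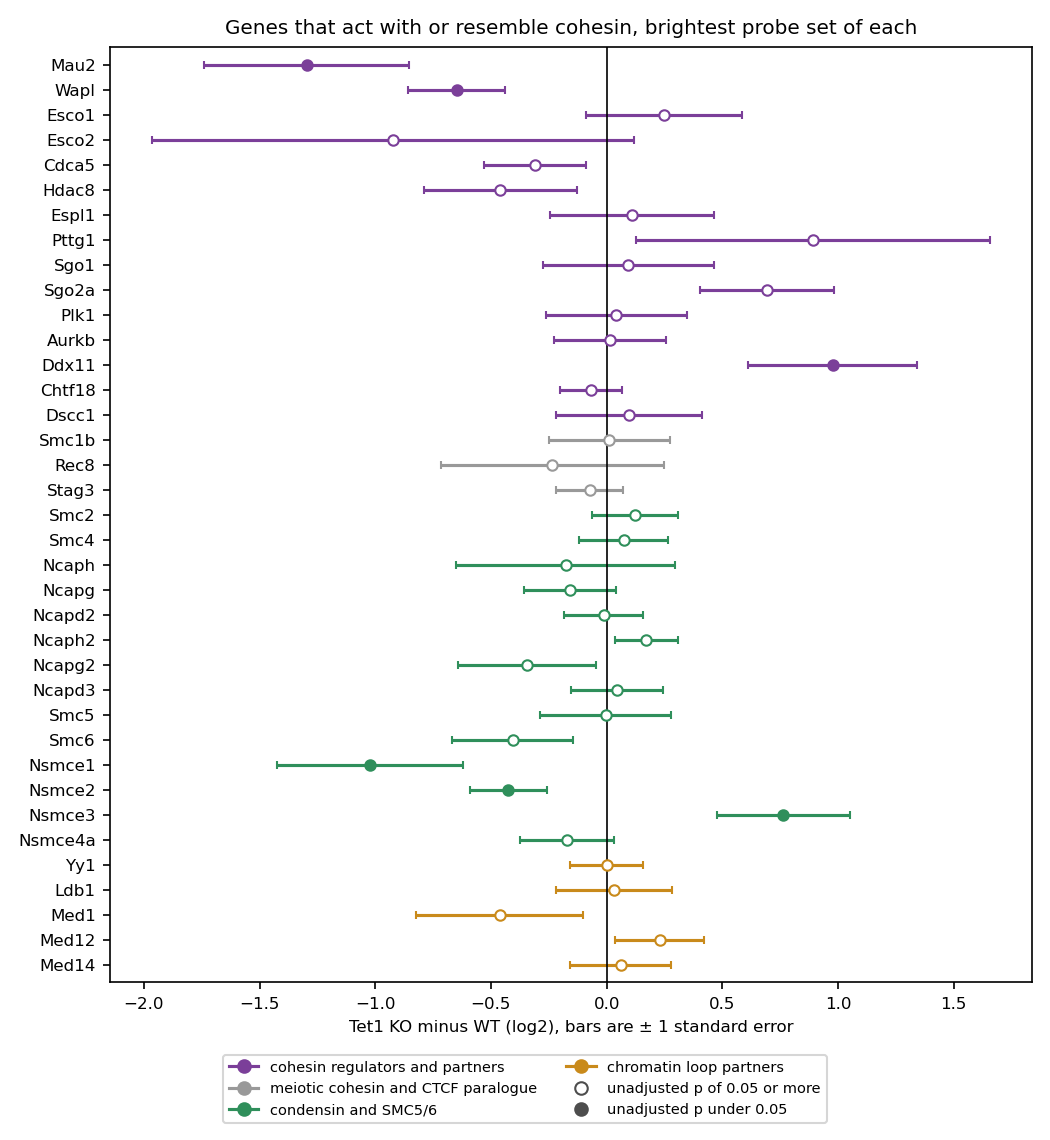
Tet1 KO minus WT difference (log2, ± 1 standard error from limma, 3 arrays per group) at the brightest probe set of genes that act with cohesin or belong to related complexes, with filled points for an unadjusted p under 0.05. Mau2, at -1.30, and Nsmce1, at -1.02, lie farthest below 0 among the filled points, and Ddx11, at 0.98, farthest above.

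Probe sets of the same member often pointed different ways, as did those of many genes on the array. Among members with at least 2 probe sets above the bacterial control level, 6 of 9 had values of both signs, or 66.7%, where 53.8% of 6157 such genes on the array did. Members had 2 to 6 such probe sets, and the 6157 genes were not matched for that number. With so few members these shares are not told apart. With all arrays in, the members without both signs were Rad21 and Pds5b, lower throughout, and Ctcf, higher throughout. Without Tet1 KO replicate 2 the brightest probe set of each turned, to 0.09 at Rad21, 0.23 at Pds5b and -0.11 at Ctcf. The mean profile of the 9 brightest member probe sets, each centred on its own mean, stayed between -0.04 and 0.05 on all 6 arrays. That mean cancels opposite deviations: relative to the WT mean, the 9 had a median of -0.37 on Tet1 KO replicate 2, while Stag1 stood far above, and that array was the Tet1 KO array farthest from the WT mean at 7 of the 9. By root mean square distance over the 6 arrays, the nearest of 12955 other genes were the histone acetyltransferase gene Hat1, at 0.0257, the cyclin-dependent kinase gene Cdk6, at 0.0297, and the glutathione peroxidase gene Gpx4, at 0.0308. The median distance was 0.286. As the mean profile was nearly flat, this distance picks genes that varied little over the 6 arrays. Likeness to single members was not examined.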

How the data were processed

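LSK RNA of 3 Tet1 KO and 3 WT samples was hybridised to Affymetrix arrays from cDNA of 125 ng RNA, per the labels' protocols. The deposited table held log2 intensities for 45101 probe sets, a scale read from the values (1.50 to 14.6). How the authors corrected, normalized and summarized them is not stated in the sources used. The labelling kits named are made for whole-transcript arrays, whereas the probe set names belong to a 3′ array. Array medians spanned 0.0694, and values were used as deposited. Probe sets were named by GEO's platform annotation, by which 34958 had 1 symbol. The members and gene lists were chosen with earlier results of these data known. After removal of 64 platform controls, 45037 probe sets were fitted in limma 3.58.1 (R 4.3.3, lmFit and eBayes) with a single genotype term, two-sided, Benjamini-Hochberg adjusted over all of them, at 0.05. The bacterial control level averages, across the 6 arrays, each array's highest value among 27 bacterial controls. The named-gene rule gave array values for each member's brightest probe set (highest mean of 6 arrays) and for those without overlap above that level; other probe sets were added after their values were seen. Related genes were named at an unadjusted p under 0.05. Pttg1, the meiotic genes, the loop partners and the lineage marker genes were added after their values were seen. Synonyms were matched through RefSeq (GRCm38.p6). The fit was tested on simulated data. Precision is limited by 3 arrays per group. Same-numbered samples did not deviate together, with correlations of -0.01 to 0.01.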

Additional observations from a re-analysis of the deposited data

How the results depend on the processing

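No member had an adjusted p under 0.05 in any alternative tried, and the number over all probe sets was 0 in each but one: with an intensity trend and robust estimation it was 1, the unnamed probe set 1450192_at, lower in Tet1 KO by -3.34 with an adjusted limma p of 0.0449. At an unadjusted p under 0.05 the 2 members became 1 with array weights, 4 with the replicate block, and 0 of the 9 genes with the brightest or the mean of probe sets; leaving out an array gave 1 to 4, with 1 when Tet1 KO replicate 1 or 2 or WT replicate 3 was left out, and 4 without WT replicate 2. The 3065 probe sets at that p became 1713 above the bacterial control level, where 508 were higher and 1205 lower, against 1453 and 1612. They became 1311 genes with the brightest and 1446 with the mean of probe sets, where fewer features were tested, and leaving out an array gave 1558 without WT replicate 1 up to 4627 without Tet1 KO replicate 1, with 1567 without WT replicate 2 and 2030 without WT replicate 3. Same-numbered arrays were alike in Xist and Y state, with replicate 3 of each group Xist-low, and no other link between them is known. The replicate block gave 2396 probe sets at that p.

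Signs at the brightest probe sets, none of them called, turned as follows, and the cause was not tested. With quantile normalization Stag2 gave 0.0546 and Pds5b 0.0299. With cyclic loess Rad21 gave 0.0409, Stag2 0.0979 and Pds5b 0.0760. With a common median Ctcf gave -0.00026. With array weights Rad21 gave 0.0256, Stag2 0.0667, Nipbl 0.0537, Pds5a -0.0525, Pds5b 0.0999 and Ctcf -0.0653. With the mean of probe sets Smc1a gave -0.19, Stag1 -0.14, Stag2 0.0566 and Stag2 minus Stag1 0.19. Leaving out an array gave -0.0394 to 0.26 for Smc1a, -0.22 to 0.0927 for Rad21, -0.16 to 0.14 for Stag2, -0.34 to 0.18 for Nipbl, -0.15 to 0.30 for Pds5a, -0.32 to 0.23 for Pds5b, -0.11 to 0.13 for Ctcf, -1.24 to 0.0541 for Stag2 minus Stag1 and -0.55 to 0.38 for Pds5b minus Pds5a. Smc3 kept its sign, from -0.65 to -0.16, as did Stag1, from 0.08 to 1.09, and Tet1, from -1.24 to -0.87, when an array was left out.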
